A study of Ovis aries with 9 samples.

Results

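Liver RNA from Tan sheep fed succinate at 2% of the diet was set against liver RNA from sheep on the basal diet. The comparison uses 6 of the 9 libraries of the series, chosen by their treatment label: 3 from control sheep and 3 from sheep given 2% succinate. The other 3 libraries, from sheep given 1% succinate, entered the estimate of spread and a comparison between doses. All sheep were males aged 5 months from 1 trial of 60 days with 10 days of pretrial feeding, and all groups received the same basal diet. Each group had 5 stalls of 2 sheep, and the libraries are numbered 1 to 3 within a group. Per the labels, liver was frozen in liquid nitrogen right after slaughter. The time of day at which each liver was taken is not given in the sources used here.

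Succinate is an intermediate of the tricarboxylic acid cycle, where succinate dehydrogenase turns it into fumarate, and in ruminant liver it is also formed from propionate of the rumen by way of succinyl-CoA. The liver keeps a circadian clock, in which ARNTL (also called BMAL1) pairs with CLOCK or NPAS2 to drive the genes of its own repressors, the PER and CRY proteins and the nuclear receptors NR1D1 and NR1D2. The liver is also the main source of circulating IGF1 and one of the main sites of heme synthesis.

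Of the 21257 genes of the deposited table, 11944 reached 1 FPKM (fragments counted per kilobase and scaled to library depth) in at least 3 of the 9 libraries and were tested. Values were compared as log2(FPKM + 1) with limma, a gene passed at a Benjamini-Hochberg adjusted p under 0.05 over all tested genes, and changes are log2 differences on that scale, which understates the change of genes at low FPKM. Reads recovered from the FPKM steps numbered 13818648 to 15807343 in the 6 libraries. Hepatocyte markers were high in each library, with albumin (ALB) at 18208, 13765 and 43479.6 FPKM in the controls and 43856, 28844 and 39606 at 2%. Muscle genes were close to absent, with 12 of 13 skeletal muscle markers under 1 FPKM in every one of the 6 libraries and 4 of them listed at 0. The 2% libraries correlated with each other at 0.9635 to 0.9733 and with the controls at 0.9514 to 0.9666, and the controls with each other at 0.9468 to 0.9576 (Pearson's r across genes, which are not independent replicates). Control 1 stood apart in scale, with a median-ratio factor of 1.198 against 0.9844 to 1.024 in the other 5. Over all tested genes the median log2 change at 2% was -0.055, with 60.7% of genes below control, and without control 1 this median was 0.021. The labels tie no library to an animal or stall, so the p-values measure the spread between these libraries, part of which may be technical.

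At 2% succinate, 6 of 11944 genes passed, which is 0.0502% of those tested. ARNTL and the ciliary protein gene ANKS6 rose. ALAS1, which encodes the rate-limiting enzyme of heme synthesis, the deubiquitinase gene USP2, the clock repressor gene CIART and an unnamed protein-coding gene, LOC105614852, fell. Both directions were rare, at 0.0167% of genes higher and 0.0335% lower. An unadjusted p under 0.05 was reached by 619 genes (5.18%), 127 of them higher (1.06%) and 492 lower (4.12%). The 2% libraries lay wholly above or wholly below the controls in 1269 genes, 10.6% of those tested, with 2.6% above and 8.02% below. Since these are libraries of whole tissue, fewer cells of a type and less RNA per cell cannot be told apart.

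ALAS1 stood at 191, 106 and 169.7 FPKM in control libraries 1 to 3 and at 30.3, 30.1 and 34.4 in the 2% libraries. The 2% values lay within a few FPKM of each other and far below the lowest control. The log2 change was -2.22 (SE 0.24, limma adjusted p = 0.0155). USP2, whose product removes ubiquitin from other proteins and whose RNA cycles with the clock in mouse liver, was at 4.66, 3.39 and 4.21 FPKM in the controls and 0.469, 0.236 and 0.433 at 2%. All 2% libraries were under 1 FPKM and no control was, with a log2 change of -1.88 (SE 0.17, limma adjusted p = 0.00832). CIART, which in mouse represses the CLOCK and ARNTL pair, was at 3.09, 2.80 and 1.98 FPKM in the controls and 0.157, 0.367 and 0.187 at 2%, again with no overlap (log2 change -1.54, SE 0.20, limma adjusted p = 0.0469). LOC105614852 was at 5.02, 4.20 and 2.68 FPKM in the controls and 0.323, 0.225 and 0.645 at 2% (log2 change -1.81, SE 0.21, limma adjusted p = 0.0221). USP2 and CIART are among 9 tested genes that reached 1 FPKM in the 3 controls and in no other library, so that the filter admitted them only through a difference.

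The genes that rose did so in every 2% library. ARNTL was at 3.02, 3.78 and 2.26 FPKM in the controls and 11.97, 12.6 and 10.6 at 2%, and the lowest 2% library was well above the highest control (log2 change 1.68, SE 0.21, limma adjusted p = 0.0406). ANKS6, a partner of the kinase NEK8 in the base of primary cilia, was at 1.91, 1.96 and 1.59 FPKM in the controls and 6.87, 5.66 and 7.27 at 2%. Its controls lay close together and all 2% libraries were well above them (log2 change 1.43, SE 0.14, limma adjusted p = 0.00832).

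**Figure D1:**
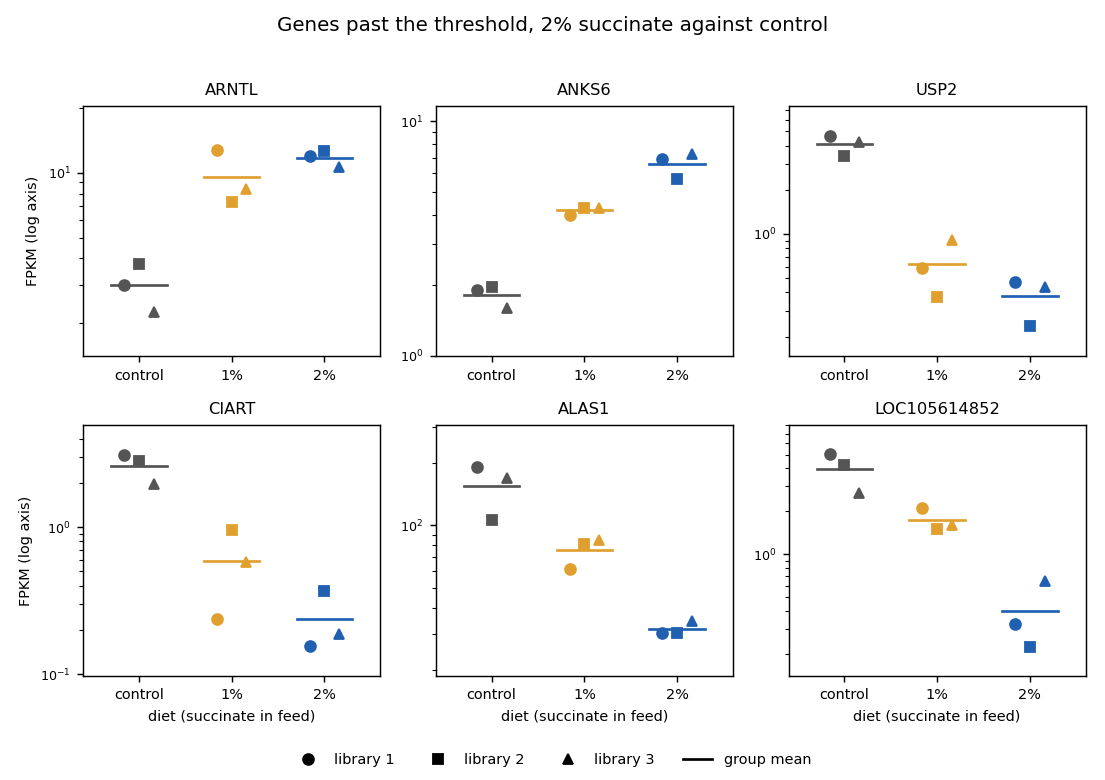
FPKM on a log axis for the 6 genes that passed at 2% against control, with 1 symbol per library number and a line at each group mean. Control and 2% libraries do not overlap in any of the 6 genes, and ALAS1 is at 30.1 to 34.4 FPKM at 2%.

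The count of 6 changed with the libraries in the fit. It was 0 without control 1, without 2% library 1 or without 2% library 3. It was 1 without control 2 (ALAS1), 1 without control 3 (LOC105614852) and 1 without 2% library 2 (ANKS6). In the fit of control and 2% libraries alone, without the 1% libraries, the count was also 0. USP2 and CIART failed the filter, and so were not tested, when any control was left out. All 6 genes kept their direction in every alternative in which they were tested. Of the alternatives that tested each gene, ALAS1 passed in 13 of 21, ANKS6 in 12 of 20 and USP2 in 12 of 16. LOC105614852 passed in 10 of 19, ARNTL in 8 of 21 and CIART in 4 of 16. The limma adjusted p ranged from 0.0114 to 0.218 for ALAS1, 0.0169 to 0.291 for ARNTL and 0.0308 to 0.263 for CIART. A library of conflicting labels, whose title reads 2% and whose treatment label reads 1%, was kept at 1%, and placing it at 2% left 1 passing gene, USP2.

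Among the clock genes ARNTL and CIART passed, and the others are given by role. Beside the median of a gene list, brackets give its range with 1 control or 2% library at a time left out. Leaving out a library can also change which members pass the filter. Among activators, 5 of 5 tested genes were above control and 3 did not overlap with it, with a median log2 change of 0.42 (0.40 to 0.57) against -0.055 for all genes. The shares over all tested genes were 39.3% above control and 2.6% wholly above it. CLOCK, the partner of ARNTL, was at 2.13, 2.29 and 1.92 FPKM in the controls and 2.96, 3.26 and 3.29 at 2% (log2 change 0.42, limma adjusted p = 0.868). NPAS2, which can stand in for CLOCK, was at 2.18, 2.23 and 0.724 FPKM in the controls and 3.52, 3.73 and 5.16 at 2% (log2 change 0.96). In both genes every 2% library lay above every control, but neither passed. RORA, a nuclear receptor that activates ARNTL, overlapped with control at a log2 change of 0.28.

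Among all tested genes 60.7% were below control. CIART, counted in the repressor list, was admitted by the filter only through its control values. Of the 8 repressor genes, 7 were below control and 1, CRY1, was above, with a median log2 change of -1.06 (-1.12 to -0.54). Without control 1 that median was -0.54, with 5 genes below and 2 above. CIART then failed the filter, so this median is over 7 genes and the shift is not that of control 1 alone. PER3 was at 13.8, 7.59 and 15.6 FPKM in the controls and 2.76, 3.38 and 4.75 at 2%, a log2 change of -1.49 (limma adjusted p = 0.402). NR1D2, which represses ARNTL, was at 20.6, 14.9 and 20.8 FPKM in the controls and 7.10, 4.32 and 8.01 at 2% (log2 change -1.42, limma adjusted p = 0.111). NR1D1, its close relative, was at 11.4, 13.9 and 20.4 FPKM in the controls and 5.83, 2.50 and 10.2 at 2% (log2 change -1.29). In PER3, NR1D2 and NR1D1 the 2% libraries were all below the controls, although 2% library 3 of NR1D1, at 10.2 FPKM, lay just under the lowest control. CRY1, which represses the CLOCK and ARNTL pair, went the other way, at 2.51, 2.22 and 1.57 FPKM in the controls and 8.52, 7.99 and 5.29 at 2% (log2 change 1.40, limma adjusted p = 0.151). PER1 (log2 change -0.68) and CRY2 (-0.83) overlapped with control, and PER2 was at 18.1, 10.05 and 13.9 FPKM in the controls and 14.2, 16.3 and 10.03 at 2%, a log2 change of -0.04 that is positive under quantile and median-ratio scaling. CIART, given above, was the repressor that passed.

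Of the genes under clock control, USP2 passed. Of 13 tested output genes, 12 were below control and 5 did not overlap, with a median log2 change of -0.27 (-0.41 to -0.18). These counts include USP2, which the filter admitted only through its control values, so its place in them carries no weight. The shares over all tested genes were 60.7% below control and 8.02% wholly below it. DBP, TEF and HLF are related transcription factors that bind the same DNA element. DBP was at 23.7, 29.1 and 41.3 FPKM in the controls and 9.37, 8.32 and 8.12 at 2%, with the 3 dosed libraries nearly level (log2 change -1.72, limma adjusted p = 0.111). TEF was at 9.27, 9.79 and 14.3 FPKM in the controls and 5.44, 4.15 and 5.56 at 2%, and HLF at 14.5, 10.97 and 15.8 in the controls and 6.77, 3.69 and 10.2 at 2%. Both lay wholly below control, at log2 changes of -0.99 and -0.98. NFIL3, which represses at the sites that DBP activates, overlapped with control at 14.9, 17.3 and 12.6 FPKM against 24.5, 24.4 and 12.6 (log2 change -0.38). BHLHE40, another repressor of clock targets, overlapped as well (log2 change -0.27).

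**Figure D2:**
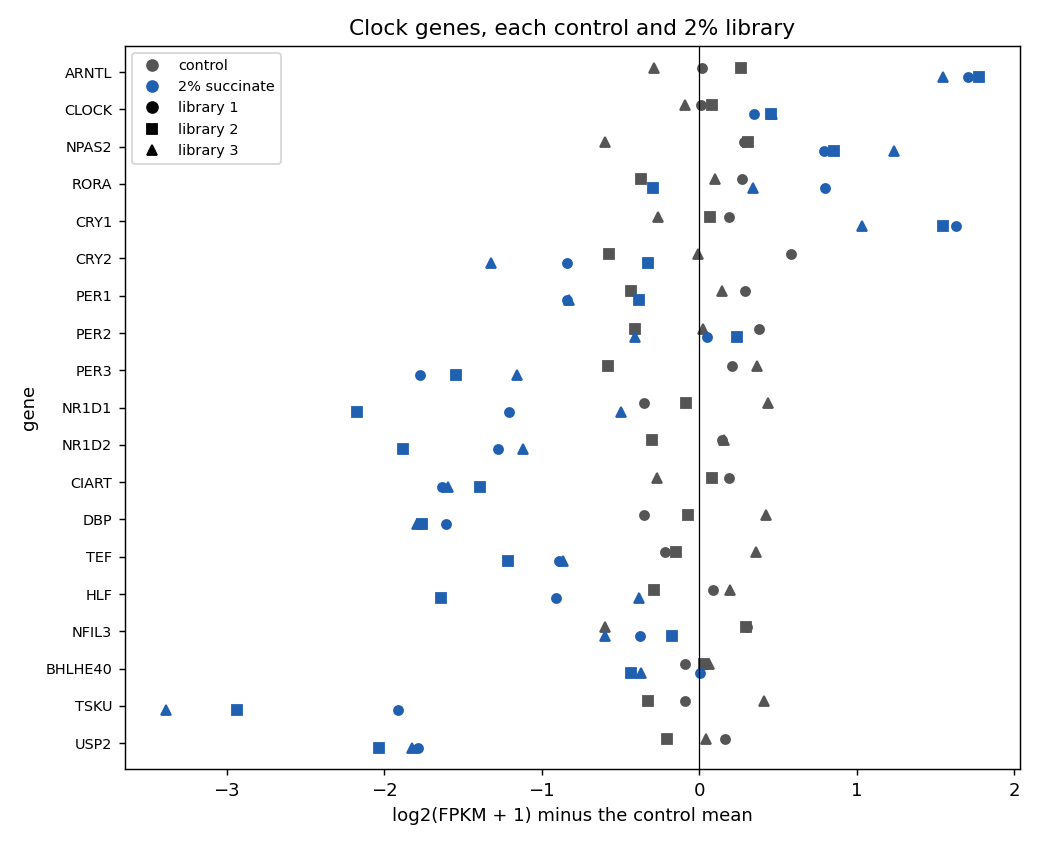
Log2(FPKM + 1) minus the control mean for 19 genes of the clock and its outputs, TSKU and USP2 included, with 1 point for each control (grey) and 2% library (blue). The 2% points of ARNTL, CLOCK, NPAS2 and CRY1 lie to the right of all controls, and those of PER3, NR1D1, NR1D2, CIART, DBP, TEF, HLF, TSKU and USP2 to the left.

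In heme synthesis ALAS1 was the gene that passed. Of 14 tested members, 10 were below control and 4 above, with a median log2 change of -0.10 (-0.18 to -0.041) for the whole list. Under quantile scaling, median-ratio scaling and voom the split was 7 and 7, with medians of -0.023, -0.046 and -0.055. ALAD, the next enzyme of the pathway, was at 77.8, 70.2 and 92.7 FPKM in the controls and 67.6, 53.8 and 58.4 at 2% (log2 change -0.41, limma adjusted p = 0.95). UROD was at 29.8, 26.5 and 24.1 FPKM in the controls and 22.2, 24.05 and 23.9 at 2%, below control by less than 1 FPKM at the closest pair (log2 change -0.18). FECH, which inserts the iron, overlapped (log2 change -0.42, limma adjusted p = 0.95). Heme oxygenase, HMOX1, was at 219.6, 45.8 and 33.2 FPKM in the controls and 39.1, 54.4 and 53.5 at 2%, so that control 1 alone stood high. Its log2 change of -0.51 became 0.31 without control 1. Of 8 genes of heme breakdown and export, 7 were below control, with a median of -0.35 (-0.44 to -0.20). The porphyrin exporter ABCG2 was the member of this list whose groups did not overlap (log2 change -0.31). Beside the counts of both heme lists, 60.7% of all tested genes were below control.

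None of the measured partners of ANKS6 passed. Among 19 tested genes of its complex and of cilia, 8 were above control and 11 below, and the median of -0.027 (-0.059 to 0.026) turned positive under quantile scaling (0.035). NEK8, the kinase that ANKS6 binds, was at 3.92, 2.39 and 2.02 FPKM in the controls and 2.13, 2.53 and 1.96 at 2% (log2 change -0.21). BBS2, a subunit of the complex that carries cargo to cilia, was at 3.60, 3.27 and 4 FPKM in the controls and 2.38, 2.90 and 3.16 at 2% (log2 change -0.28, limma adjusted p = 0.95), the 1 member that lay wholly below control.

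IGF1 had the smallest p of the growth hormone axis but did not pass. It was at 51.8, 59.1 and 48.6 FPKM in the controls and 180.4, 101 and 209.5 at 2%, with a log2 change of 1.54 (SE 0.28, limma adjusted p = 0.264). All 2% libraries were above all controls, and 2% library 2 lay well under the other two. The receptor gene GHR was at 170.0, 224 and 285 FPKM in the controls and 345, 269 and 299.7 at 2%, with overlap between library 2 at 2% and control 3 (log2 change 0.45). SOCS2, a feedback inhibitor of the receptor that growth hormone induces, also had its lowest 2% value in library 2, at 15.7, 25.96 and 20 FPKM in the controls and 50.5, 21.4 and 44.2 at 2% (log2 change 0.82, limma adjusted p = 0.95). CISH, another feedback inhibitor, was at 36.1, 11.6 and 40.7 FPKM in the controls and 16.03, 11.3 and 11.3 at 2%, and 2 of its controls were far above every other value (log2 change -0.97).

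The binding proteins of the axis gave no common direction. IGFBP1, an insulin-sensitive inhibitor of IGF action, spread widely at 401, 286 and 137 FPKM in the controls and 454, 179 and 749.9 at 2% (log2 change 0.65). IGFBP3, the main carrier in blood, was at 198, 171 and 201 FPKM in the controls and 280.2, 127 and 188 at 2%, and its log2 change of -0.01 was positive under each of the other scalings. IGFBP4 was at 880.4, 1072 and 844 FPKM in the controls and 762, 636 and 778 at 2%, wholly below control (log2 change -0.36, limma adjusted p = 0.95). IGF2, the related growth factor, lay below control by a smaller margin, at 89.1, 102 and 96.6 FPKM in the controls and 79.5, 87.2 and 77.3 at 2% (log2 change -0.23). PAPPA, a protease that cuts IGFBP4, overlapped, with 2% libraries 1 and 3 low at 6.45, 12.6 and 5.94 FPKM in library order against 11.8, 10.4 and 11.4 in the controls. Over the 19 tested genes, 9 were above and 10 below control, with a median of -0.006 (-0.085 to 0.027) that turned positive under quantile scaling (0.11).

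**Figure D3:**
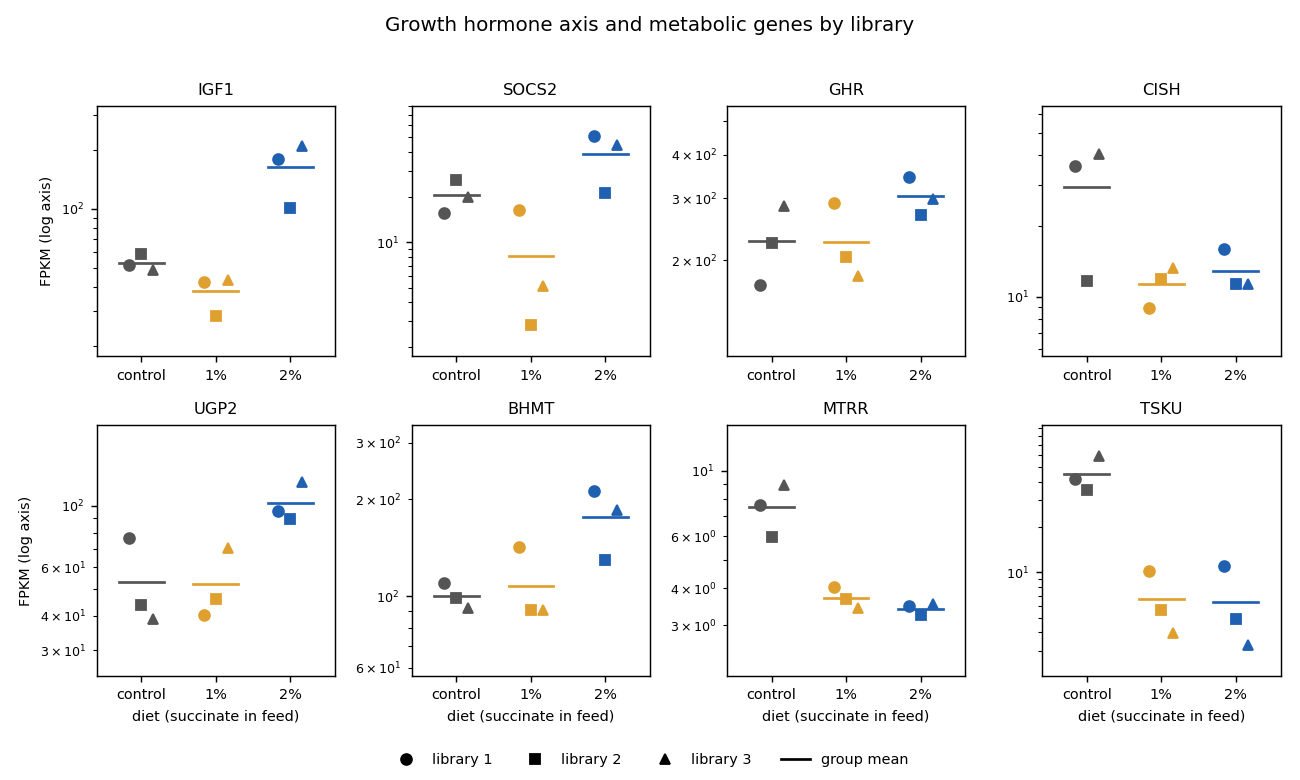
FPKM on a log axis for IGF1, SOCS2, GHR, CISH, UGP2, BHMT, MTRR and TSKU, with 1 symbol per library number and a line at each group mean. IGF1 is at 101.1 to 209.5 FPKM at 2% against 48.6 to 59.1 in the controls, and no gene of this plot passed.

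Among the genes next in order of p, all short of the threshold, several had no overlap between groups. TSKU, a secreted protein made by the liver, was at 41.4, 34.99 and 59.1 FPKM in the controls and 10.99, 4.90 and 3.31 at 2% (log2 change -2.74, SE 0.40, limma adjusted p = 0.0972), and it passed with a pseudocount of 5. HINT1, a small hydrolase of purine phosphoramidates, was at 23.4, 26.2 and 25.3 FPKM in the controls and 2.80, 10.6 and 6.08 at 2% (log2 change -1.93, limma adjusted p = 0.264). Its controls were nearly level while the 2% libraries spread. MTRR, which reactivates methionine synthase, was at 7.66, 5.97 and 8.91 FPKM in the controls and 3.47, 3.23 and 3.53 at 2% (log2 change -0.93), with the tighter values at 2%. MYCL, a transcription factor of the MYC family, was at 2.73, 2.21 and 2.41 FPKM in the controls and 0.807, 0.425 and 0.825 at 2% (log2 change -1.04). CLEC3B, a plasminogen-binding plasma protein, was at 47.1, 43.04 and 36.8 FPKM in the controls and 23.8, 23.3 and 20.6 at 2% (log2 change -0.87). For these genes the adjusted p was 0.151 for MTRR, 0.264 for MYCL and 0.402 for CLEC3B.

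Of genes higher at 2%, CRY1 and IGF1, given above, had the smallest p after the passing genes. PALMD, which encodes palmdelphin, was at 11.9, 14.9 and 17.4 FPKM in the controls and 47.8, 25.8 and 50.8 at 2% (log2 change 1.39, limma adjusted p = 0.402). LRFN4, a membrane adhesion protein known from neurons, was at 5.61, 8.26 and 4.28 FPKM in the controls and 13.8, 12.6 and 13.1 at 2% (log2 change 1.04), and its 2% libraries were nearly level. ACOT6, an acyl-CoA thioesterase, was at 11.5, 7.10 and 6.58 FPKM in the controls and 22.6, 21.4 and 17.1 at 2% (log2 change 1.21). GLT1D1 (1.09), DOK5, an adaptor of receptor tyrosine kinases (1.18), and CCDC160 (0.62) also lay wholly above control, with adjusted p from 0.626 for CCDC160 to 0.681 for DOK5.

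Genes that handle the added substrate differed little. Of 18 tested genes of succinate transport, formation and oxidation, 7 were above control, 11 below and 0 passed, with a median log2 change of -0.071 (-0.12 to -0.029) that turned positive under quantile scaling (0.011). Of succinate dehydrogenase, SDHA was at 151, 122 and 179 FPKM in the controls and 149, 119 and 118 at 2% (log2 change -0.22), SDHB at 10.4, 10.7 and 13.3 in the controls and 12.3, 11.7 and 10.9 at 2% (0.02), SDHC at 101, 86.5 and 127 in the controls and 118, 83.3 and 93.6 at 2% (-0.09), and SDHD at 80.8, 89.99 and 111 in the controls and 81.98, 92.6 and 66.5 at 2% (-0.22). Controls and 2% libraries overlapped in all 4 subunits. The subunits of succinyl-CoA ligase overlapped too, with log2 changes of -0.22 for SUCLG1 and 0.22 for SUCLA2. SLC25A10, the mitochondrial dicarboxylate carrier, was at 41.6, 38.4 and 51.9 FPKM in the controls and 36.5, 26.9 and 34.7 at 2% and was the member that did not overlap (log2 change -0.42, limma adjusted p = 0.95). The plasma membrane carrier SLC13A3 was at 4.99, 3.55 and 5.58 FPKM in the controls and 3.18, 4.10 and 2.92 at 2% (log2 change -0.37), while SLC13A5, which carries citrate, ranged so widely in the controls, at 50.8, 163 and 8.75 FPKM, that its log2 change of 0.94 became -0.14 without control 3. The succinate receptor gene SUCNR1 did not pass the filter, with a mean of 1.11 ± 0.819 FPKM in the controls and 0.779 ± 0.171 at 2% (SD, n = 3 each).

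In the tricarboxylic acid cycle 10 of 23 genes were above control and 13 below, with a median of -0.066 (-0.14 to 0.037) that was 0.035 under quantile scaling. IDH2, the mitochondrial NADP-dependent isocitrate dehydrogenase, was at 35.5, 21.9 and 11.4 FPKM in the controls and 34.4, 46.8 and 38.6 at 2%, with control 1 inside the 2% range (log2 change 0.90, limma adjusted p = 0.95). CS, citrate synthase, overlapped at a log2 change of 0.34. Along the route from propionate to succinyl-CoA, 8 of 10 genes were below control, with a median of -0.14 (-0.20 to -0.12). Among all tested genes 60.7% were below control. MCEE, the methylmalonyl-CoA epimerase, was at 73.4, 96.1 and 91.1 FPKM in the controls and 49.5, 60.9 and 57.6 at 2% (log2 change -0.62, limma adjusted p = 0.95). No member of either list passed.

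None of the tested nuclear genes of the respiratory chain passed. Of 36 complex I subunits, 32 were below control, with a median of -0.18 (-0.30 to -0.086), and 3 did not overlap. The background over all tested genes was 60.7% below control and 8.02% wholly below it. NDUFV1, which carries the NADH site of the complex, was at 54.6, 46.6 and 57.5 FPKM in the controls and 39.9, 44.6 and 31.5 at 2% (log2 change -0.45). NDUFA12 was at 25.2, 21.97 and 19.3 FPKM in the controls and 17.4, 18.1 and 15.1 at 2% (log2 change -0.37), also wholly below control. Of 35 listed subunits of complexes III to V, only 17 were found by name and tested. Of these 17, 16 were below control, with a median of -0.24 (-0.32 to -0.14). ATP5F1A, the alpha subunit of ATP synthase, was at 178, 176 and 207 FPKM in the controls and 172, 149.7 and 145 at 2% (log2 change -0.26), whereas UQCRH of complex III overlapped because 2% library 2, at 80.3 FPKM, lay above 2 controls. Under quantile scaling the medians of both lists were nearer 0, at -0.078 and -0.12. By library, the complex I median against the control mean was -0.218, 0.007 and -0.379 in 2% libraries 1 to 3. For complexes III to V it was -0.179, 0.024 and -0.401. Control 2 was at -0.221 and -0.186 in these lists.

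Of 12 tested genes encoded in mitochondrial DNA, 9 were above control, with a median of 0.24 (0.011 to 0.48). That median rested on 2% library 2: without it 6 genes were above and 6 below control, with a median of 0.011. It was 0.13 without control 2. COX1, a core subunit of cytochrome c oxidase, was at 16823, 11657 and 14626.5 FPKM in the controls and 18736, 26011 and 22584 at 2% (log2 change 0.65, limma adjusted p = 0.95). ND4L of complex I was at 362, 403 and 429.7 FPKM in the controls and 633, 602 and 820.2 at 2% (log2 change 0.77, limma adjusted p = 0.903), and in both genes all 2% libraries were above all controls. ND1 differed between the 2% libraries themselves, at 286, 2556 and 314 FPKM against 1667, 1528 and 1849 in the controls (log2 change -1.45). ND3 split the same libraries, at 245, 559.9 and 214 FPKM against 539, 742 and 774 (log2 change -1.13). In ND1 and ND3, 2% libraries 1 and 3 were the lowest of all 6, and 2% library 2 was above every control in ND1 and within their range in ND3.

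No cytosolic ribosomal protein gene passed. For the counts that follow, 60.7% of all tested genes were below control and 8.02% wholly below it. In the small subunit 28 of 31 genes were below control and 7 of them did not overlap, with a median of -0.21 (-0.33 to -0.13). This count was 17 below under quantile scaling, 21 under median-ratio scaling and 19 without control 1. In the large subunit 33 of 43 were below, 1 without overlap, with a median of -0.15 (-0.24 to -0.093). RPS19 was at 219, 185.5 and 195 FPKM in the controls and 163, 133 and 137 at 2% (log2 change -0.47). RPL6 was at 175, 114 and 136 FPKM in the controls and 91.98, 80.6 and 86.03 at 2% (log2 change -0.69). The medians of the small and large subunit lists were -0.06 and -0.021 under quantile scaling. In the mitochondrial ribosome 26 of 39 genes were below control and 13 above, with a median of -0.028 (-0.13 to 0.061) that was positive under each other scaling. The constitutive proteasome was split evenly, with 16 of 31 genes above control and a median of 0.012 (-0.092 to 0.095).

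Carbohydrate genes stood on both sides of control. UGP2, which makes the UDP-glucose used for glycogen, was at 76.5, 43.7 and 38.9 FPKM in the controls and 95.6, 89.3 and 122 at 2%, with every 2% library above every control (log2 change 0.99, limma adjusted p = 0.868). The liver phosphorylase gene PYGL was at 175, 149 and 177 FPKM in the controls and 287, 161 and 234 at 2%. It overlapped with control, and 2% library 1 was its highest library. PPP1R3B, which targets a phosphatase to glycogen, went the other way, with 2% values of 52.4, 65.5 and 51.5 FPKM that overlapped with control 2 (log2 change -0.64). The list of 17 glycogen genes had a median of -0.11 (-0.15 to -0.013), with 6 above control.

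Several glycolytic genes lay below control without passing. PFKFB1, a regulatory enzyme of glycolysis in liver, was at 33.9, 47.9 and 54.3 FPKM in the controls and 26.9, 22.1 and 9.97 at 2% (log2 change -1.25, limma adjusted p = 0.903). PKLR, the liver pyruvate kinase, was at 32.3, 31.97 and 30.3 FPKM in the controls and 21.4, 15.8 and 22.5 at 2% (log2 change -0.65), from controls that were nearly level. PFKM, a phosphofructokinase, was at 5.60, 6.51 and 5.94 FPKM in the controls and 4.53, 3.27 and 1.56 at 2% (log2 change -0.84). These 3 genes lay wholly below control, and the median of all 20 genes of the list was -0.072 (-0.16 to 0.031), turning to 0.037 under quantile scaling. In gluconeogenesis 11 of 18 genes were below control, with a median of -0.20 (-0.17 to -0.096). GPT2, the mitochondrial alanine aminotransferase, was at 9.41, 15.5 and 17.9 FPKM in the controls and 7.68, 6.61 and 8.63 at 2% (log2 change -0.78, limma adjusted p = 0.9). The glucose 6-phosphate transporter gene SLC37A4 was at 61.1, 56.3 and 85.5 FPKM in the controls and 51.3, 42.5 and 44.7 at 2% (log2 change -0.52), also without overlap.

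Of 22 fatty acid synthesis genes, 16 were below control, 4 of them without overlap, with a median of -0.16 (-0.34 to -0.092). Over all tested genes the shares were 60.7% below control and 8.02% wholly below it. SREBF1, the transcription factor that drives the pathway, was at 12.2, 13.2 and 11.4 FPKM in the controls and 8.13, 7.85 and 7.32 at 2%, tight in both groups (log2 change -0.60, SE 0.15, limma adjusted p = 0.679). GPAM, which begins glycerolipid synthesis, was at 22.8, 30.5 and 32.7 FPKM in the controls and 15.8, 13.4 and 14.4 at 2% (log2 change -0.92). ACACB was level at 2%, at 3.33, 3.28 and 3.27 FPKM against 15.4, 6.57 and 4.38 in the controls (log2 change -1.03). AGPAT2, the next acyltransferase after GPAM, lay wholly above control instead, at 107, 100.5 and 118 FPKM in the controls and 145, 134 and 122 at 2% (log2 change 0.30). Of 27 oxidation genes, 21 were below control, with a median of -0.16 (-0.24 to -0.14), and the carnitine carrier SLC22A5 was at 15.9, 22.5 and 14.7 FPKM in the controls and 12.1, 8.94 and 8.13 at 2% (log2 change -0.80, limma adjusted p = 0.868). Genes of ketone bodies and fasting had a median of -0.23 (-0.27 to -0.21), with 12 of 15 below control. None of these genes passed.

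Bile acid genes were below control in all 16 members tested, where 60.7% of all tested genes were below. Their median was -0.30 (-0.40 to -0.26), which was -0.20 under quantile scaling. By library, the list median against the control mean was -0.008, -0.465 and -0.429 in 2% libraries 1 to 3. It was -0.123, -0.027 and 0.21 in controls 1 to 3, so 2% library 1 lay within the control range. AKR1D1, a reductase of bile acid synthesis, was at 168, 127 and 212 FPKM in the controls and 109, 109 and 94.9 at 2% (log2 change -0.66). SLC27A5, which conjugates bile acids to coenzyme A, was at 198, 215 and 279.8 FPKM in the controls and 193, 91.4 and 146 at 2% (log2 change -0.73), and its 2% library 1 lay just under the lowest control. Apolipoproteins were mixed. APOE was at 3576, 3058 and 3225 FPKM in the controls and 2416, 3039 and 2200.2 at 2% (log2 change -0.38), wholly below control, while APOC3 overlapped on the higher side at 3143, 3916 and 3836 FPKM (log2 change 0.58). The 19 genes of lipoprotein assembly had a median of -0.12 (-0.16 to -0.079), and the 25 genes of cholesterol synthesis and uptake one of -0.082 (-0.30 to 0.097) that turned positive under quantile scaling (0.013).

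**Figure D4:**
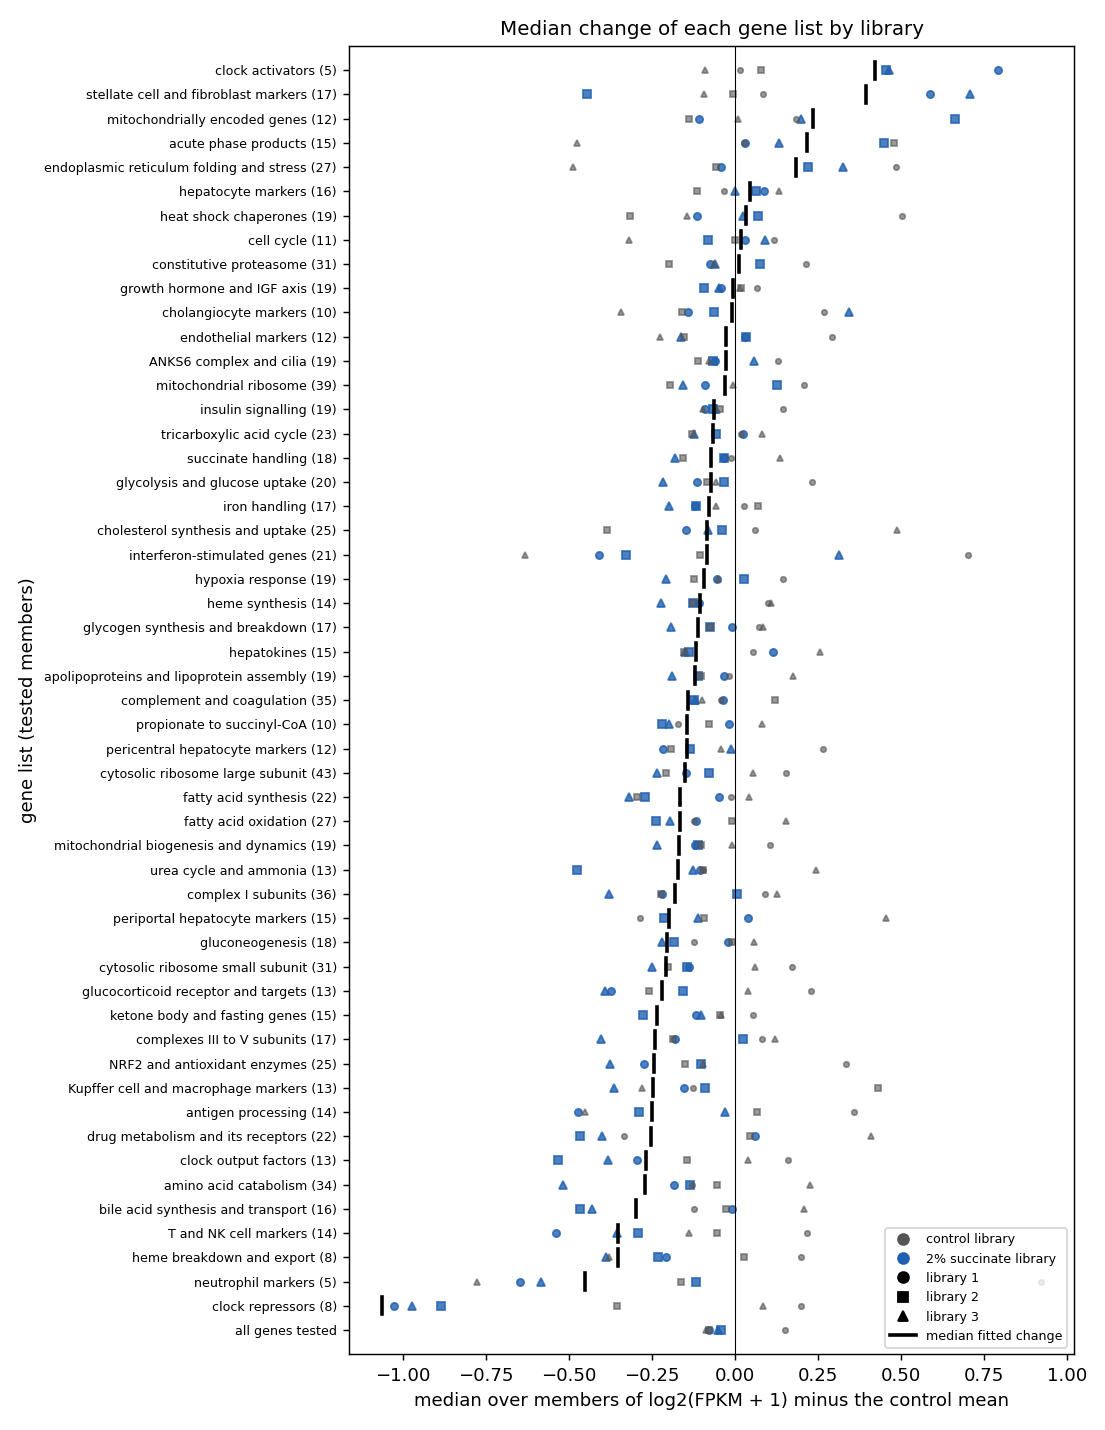
Median over the tested members of each gene list of log2(FPKM + 1) minus the control mean, with 1 point per control (grey) and 2% library (blue) and a bar at the median fitted change; the lowest line gives all tested genes. The clock activators and clock repressors hold the extremes at 0.42 and -1.06, and control and 2% points interleave in most lists. Without control 1 the repressor median was -0.54, over 7 genes, as CIART then failed the filter.

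Of all tested genes 60.7% were below control and 8.02% wholly below it. Amino acid catabolism was lower in 28 of 34 genes, 8 of them without overlap, with a median of -0.27 (-0.33 to -0.14). Without control 3 the median was -0.15 and without 2% library 3 it was -0.14, each with 23 genes below. CBS, which commits homocysteine to cysteine, was at 45.6, 44.4 and 36.2 FPKM in the controls and 31.7, 32.7 and 25.9 at 2% (log2 change -0.47, limma adjusted p = 0.903). BHMT, which instead returns homocysteine to methionine, was the member wholly above control, at 110.1, 98.5 and 92.2 FPKM in the controls and 212, 129.7 and 185 at 2% (log2 change 0.78, limma adjusted p = 0.895). MTRR, described above, serves the other route of remethylation. BCKDHA, of the branched-chain keto acid dehydrogenase, was at 13.3, 16.6 and 15.2 FPKM in the controls and 9.01, 9.81 and 9.22 at 2% (log2 change -0.63), and GCDH, of lysine breakdown, at 76.7, 74.4 and 104 in the controls and 57.7, 60.4 and 47.97 at 2% (log2 change -0.60). Both were wholly below control. In the urea cycle, NAGS, which makes the activator of its first step, was at 57.1, 50.4 and 73.5 FPKM in the controls and 47.4, 33.2 and 37.2 at 2% (log2 change -0.60). SLC25A15, the mitochondrial ornithine carrier, was at 15.8, 9.65 and 13 FPKM in the controls and 7.95, 5.10 and 5.42 at 2% (log2 change -0.95). The glutamine transporter SLC38A3 lay below control as well (log2 change -0.51), and over the list 8 of 13 genes were below, with a median of -0.17 (-0.29 to -0.024). No member of either list passed.

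For the counts in this paragraph, 60.7% of all tested genes were below control. Drug metabolism had a median of -0.25 (-0.40 to -0.066), with 18 of 22 genes below control. Without control 3 it was -0.066, with 13 below. SULT1E1, which sulfates estrogens, was at 75.7, 147 and 249 FPKM in the controls and 54.8, 54.4 and 37.04 at 2% (log2 change -1.53, limma adjusted p = 0.689), wholly below controls that differed widely. CYP3A24, a cytochrome P450 of the 3A family, lay wholly above control at 428, 143 and 509 FPKM in the controls and 800.1, 608 and 546 at 2% (log2 change 1.03). Reads shared with close paralogs make such P450 values uncertain. Among 25 antioxidant genes, 21 were below control, with a median of -0.24 (-0.32 to -0.11). Without control 1, 15 were below and the median was -0.11. SOD2, the mitochondrial superoxide dismutase, was at 237, 722 and 193 FPKM in the controls and 124, 184 and 105 at 2% (log2 change -1.26, limma adjusted p = 0.941), with control 2 far above the rest. GCLM, of glutathione synthesis, was at 23.8, 18.2 and 24.8 FPKM in the controls and 15.03, 12.8 and 11.98 at 2% (log2 change -0.70). Among glucocorticoid targets KLF9 was at 28.5, 21.6 and 24.9 FPKM in the controls and 16.4, 10.96 and 16.04 at 2% (log2 change -0.76) and TSC22D3 at 25.7, 16.7 and 23.9 in the controls and 13.5, 13.99 and 13.04 at 2% (-0.65), both wholly below control. The median of the 13 genes, -0.22 (-0.40 to 0.021), became 0.021 without control 1.

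Chaperone and stress genes of the endoplasmic reticulum stood above control in 20 of 27 genes, with a median of 0.19 (-0.003 to 0.42) that became -0.003 without control 3. HYOU1, one of these chaperones, was at 41.2, 16.8 and 10.5 FPKM in the controls and 22.1, 46.5 and 39.6 at 2%, so that control 1 lay among the 2% libraries (log2 change 0.79, limma adjusted p = 0.95). XBP1, which switches on chaperone genes, overlapped in the same way (log2 change 0.48). Heat shock genes were divided, with a median of 0.034 (-0.14 to 0.29). HSPD1, a mitochondrial chaperonin, lay wholly above control at 85.4, 87.1 and 84.9 FPKM in the controls and 112, 94.7 and 122 at 2% (log2 change 0.34), and DNAJB1, a cytosolic cochaperone, wholly below at 59.4, 22.03 and 26.5 in the controls and 18.8, 19.8 and 18.7 at 2% (log2 change -0.75). Acute phase products had a median of 0.22 (0.035 to 0.39), with 10 of 15 above control, and the median was 0.035 without control 3. The iron hormone HAMP ranged from 131 to 751 FPKM at 2% alone. Complement and coagulation genes had a median of -0.14 (-0.17 to -0.019), which turned to 0.033 under quantile scaling, and MBL2, a lectin that starts complement activation, was at 313, 357 and 379 FPKM in the controls and 256, 167 and 201 at 2% (log2 change -0.76, limma adjusted p = 0.868).

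Signalling and hypoxia genes gave single differences without a common direction. IRS1, the insulin receptor substrate, was at 15.8, 10.6 and 11.5 FPKM in the controls and 9.04, 6.52 and 10.3 at 2% (log2 change -0.51), wholly below control. P4HA1, a collagen prolyl hydroxylase that hypoxia induces, overlapped on the higher side (log2 change 0.66), and the mitophagy receptor gene BNIP3L lay wholly below control (log2 change -0.41). CCND1, a cyclin of the first gap phase, was at 11.5, 8.75 and 8.65 FPKM in the controls and 18.5, 11.3 and 16.3 at 2%, with 2% library 2 just under control 1 (log2 change 0.61, limma adjusted p = 0.915). The medians were -0.061 (-0.082 to 0.005) for 19 insulin signalling genes, which was 0.022 under quantile scaling, -0.091 (-0.12 to 0.014) for 19 hypoxia genes and 0.018 (-0.20 to 0.15) for 11 cell cycle genes.

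Markers of stellate cells and fibroblasts, the matrix-forming cells of the liver, separated the 2% libraries from each other. COL1A1 was at 16.8, 3.85 and 32.3 FPKM at 2% against 8.09, 7.09 and 3.51 in the controls (log2 change 1.04, limma adjusted p = 0.95). COL1A2 was at 20.2, 4.45 and 38.05 against 6.22, 7.34 and 6.07 FPKM, and COL3A1 at 45.1, 13.3 and 56.1 against 24.03, 20.7 and 13.9. In all of these fibrillar collagens 2% libraries 1 and 3 were above every control and 2% library 2 was below the control mean. DPT, a matrix protein that binds decorin, followed the same order at 8.94, 2.59 and 13.9 against 3.98, 4.79 and 2.57 FPKM, and decorin itself, DCN, at 29.98, 17.7 and 32.3 against 19.5, 19.1 and 19.6. LRAT, which stores vitamin A in resting stellate cells, lay wholly below control instead, at 4.25, 3.92 and 3.68 against 7.05, 4.93 and 7.70 FPKM (log2 change -0.60). The list had 14 of 17 genes above control and a median of 0.40 (0.10 to 0.63), which was 0.63 without 2% library 2 and 0.10 without 2% library 3. The summed FPKM of its 18 measured genes was 240.7 to 295.9 in the controls and 369.4, 174.2 and 472.5 in 2% libraries 1 to 3. IGF1, SOCS2, IGFBP1, ND1 and ND3 also set 2% library 2 apart from libraries 1 and 3, and the part of these cells in those values was not tested.

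**Figure D5:**
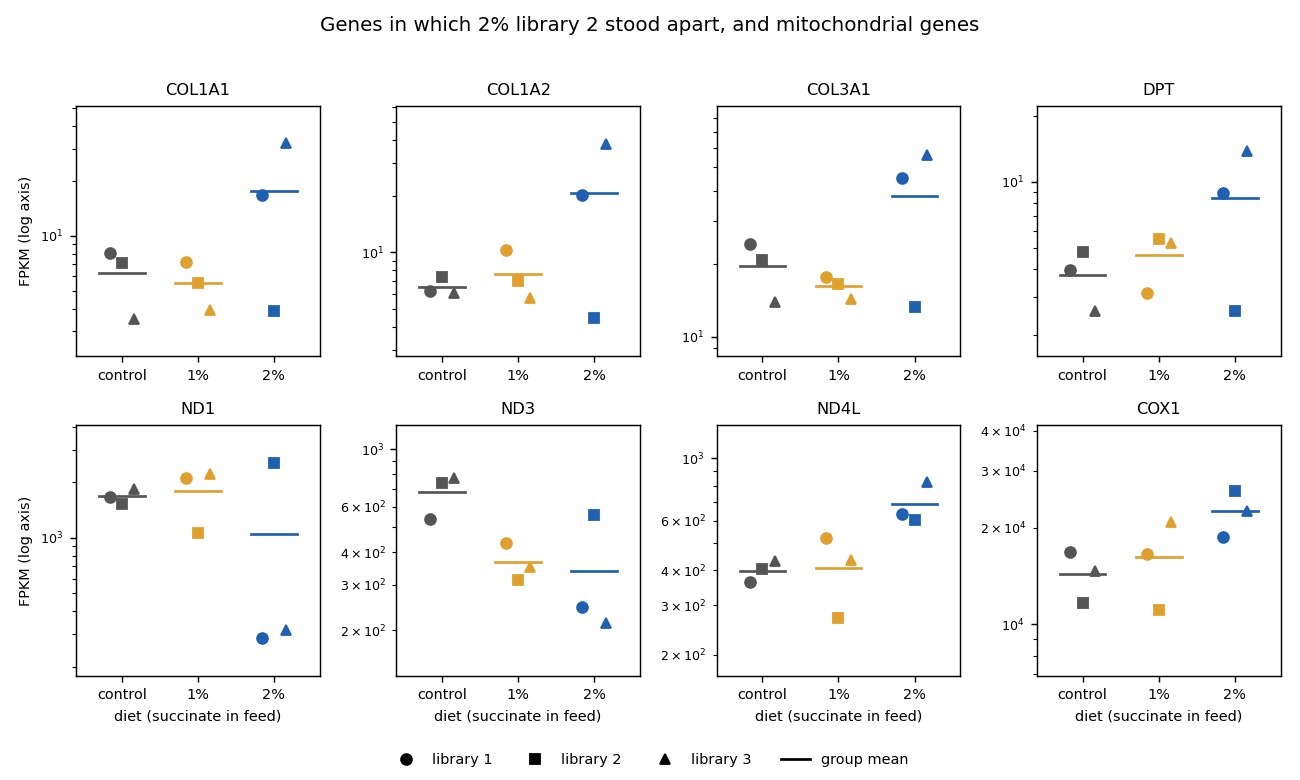
FPKM on a log axis for the collagen genes COL1A1, COL1A2 and COL3A1, the matrix gene DPT and the mitochondrially encoded genes ND1, ND3, ND4L and COX1, with 1 symbol per library number and a line at each group mean. The square of 2% library 2 lies apart from the circle and triangle of 2% libraries 1 and 3 in the first 6 genes, whereas all 2% libraries are above control in ND4L and COX1.

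No marker of immune cells passed. Of 14 tested markers of T and natural killer cells, 13 were below control, 4 of them without overlap, with a median of -0.35 (-0.49 to -0.19) that was -0.19 without control 1. Among all tested genes 60.7% were below control and 8.02% wholly below it. Under the filter, CD4 averaged 0.695 ± 0.423 FPKM (SD) in the controls and 0.798 ± 0.482 at 2%. GZMA averaged 0.686 ± 0.11 and 0.829 ± 0.118, and KLRD1 0.414 ± 0.138 and 0.4 ± 0.189. The summed FPKM of the 17 measured genes was 59.64 to 80.36 in the controls and 40.31 to 55.14 at 2%. CCL5, a chemokine of these cells, was at 12.6, 10.7 and 10.3 FPKM in the controls and 4.04, 8.61 and 5.28 at 2% (log2 change -0.86, limma adjusted p = 0.839). CD5, a surface protein of T cells, was at 1.63, 1.73 and 1.72 FPKM in the controls and 0.775, 0.956 and 0.913 at 2% (log2 change -0.52), and TNFRSF9 at 5.39, 7.45 and 5.32 in the controls and 3.81, 2.30 and 3.54 at 2% (-0.75). These 3 lay wholly below control. Kupffer cell and macrophage genes had a median of -0.25 (-0.38 to 0.005) that became 0.005 without control 2, whose summed markers stood at 915.1 FPKM against 505.9 to 600.8 in the other 5 libraries. Markers of cholangiocytes had a median of -0.007 (-0.14 to 0.12) and those of endothelium one of -0.026 (-0.14 to 0.079), both positive under quantile scaling, and 7 of 9 measured erythroid markers were under 1 FPKM in all 6 libraries. Hepatocyte markers had a median of 0.045 (-0.053 to 0.13), with 9 of 16 above control. The part of cell composition in the other differences was not tested.

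Against 1% succinate, 0 of 11944 genes passed (limma, smallest adjusted p = 0.417), 894 had an unadjusted p under 0.05 (7.48%), and voom on recovered reads also gave 0. The intervals that follow are per gene and not adjusted for the number of genes tested, so one that excludes 0 does not mean that the gene passed. Of the genes that passed against control, ALAS1 was at 61.3, 81.6 and 84.5 FPKM at 1%, between both other groups, and the log2 difference of 2% minus 1% was -1.23 (95% interval -1.76 to -0.69, limma adjusted p = 0.423). ANKS6, at 3.98, 4.27 and 4.28 FPKM at 1%, was also intermediate, with a difference of 0.55 (0.24 to 0.85, limma adjusted p = 0.505), as was LOC105614852 at 2.11, 1.51 and 1.59 FPKM (-0.97, -1.44 to -0.51, limma adjusted p = 0.423). In these 3 genes no library of one dose overlapped with the other dose or with control. ARNTL at 12.8, 7.33 and 8.41 FPKM (difference 0.31, -0.17 to 0.79), USP2 at 0.585, 0.373 and 0.912 (-0.23, -0.62 to 0.17) and CIART at 0.239, 0.958 and 0.580 (-0.34, -0.80 to 0.11) had intervals that include 0, which does not show that the doses act alike. IGF1 had the smallest p between doses, at 42.3, 28.4 and 43.5 FPKM at 1% and a difference of 2.04 (1.41 to 2.67, limma adjusted p = 0.417). SOCS2, at 16.5, 2.80 and 5.14 FPKM at 1%, had a difference of 2.33 (1.18 to 3.49, limma adjusted p = 0.423). SLC13A3 stood at 10.99, 10.5 and 6.61 FPKM at 1%, above control and 2% libraries alike, with a difference of -1.22 (-1.70 to -0.73, limma adjusted p = 0.423). DBP at 11.3, 10.03 and 5.54 FPKM, NR1D2 at 6.51, 8.09 and 7.15, CRY1 at 7.75, 4.38 and 5.28 and TSKU at 10.2, 5.66 and 3.95 at 1% stood on the same side of control as at 2%. Both doses were set against the same 3 controls, so such agreement is not independent.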

How the data were processed

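RNA of liver was measured in 9 libraries, 3 per diet. The authors deposited 1 table of FPKM per gene, the unit named in its column headers. Which aligner, read counter and gene annotation they used is not stated in the sources at hand. Genome builds in the submitters' processing notes are those of mouse (GRCm38, mm10), but gene names match sheep RefSeq (20169 of 21257, used for names only), so no coordinates or sequences are given. Mitochondrial locus tags of 13 genes were replaced by symbols. Nothing at hand says how strand or reads shared by paralogs were treated, so near-identical genes are uncertain.

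For 17402 of 17402 genes above 0 in at least 2 libraries, whole reads could be fitted to the FPKM values (tolerance 0.01). This gave 13818648 to 18172528 reads per library. The smallest multiple that fitted was taken, which can understate reads. For genes above 0 in few libraries some multiple nearly always fits, so full recovery does not show single-read steps there. The recovered reads served an added check with voom. No pair of libraries agreed within sampling noise (smallest chi-square per degree of freedom 37.2).

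Genes with at least 1 FPKM in at least 3 of the 9 libraries were fitted as log2(FPKM + 1), pseudocount 1, with limma 3.58.1 in R 4.3.3, all 9 libraries in 1 fit with moderated variances and an intensity trend. Contrasts of group means were 2% against control and 2% against 1%. P-values are two-sided and Benjamini-Hochberg adjusted over 11944 genes, with a threshold of 0.05. The procedure was tested on simulated data. It called 33% of genes with a true absolute log2 change of 1 and 86.9% of those with 2, with 10 false calls. The median estimate for a true change of 1 was 0.79. A gene that did not pass may thus still differ, and a gene that passed may be a false call. Tables and plots were made in Python 3.11.15, with pandas 2.3.3 and matplotlib 3.10.9.

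Groups follow the treatment label. The title of 1% library 3 reads 2%, and the design text codes the dosed groups otherwise than the titles, so doses are used. The title of the series concerns muscle, while the tissue label is liver.

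The comparison, its members and the gene lists were chosen with earlier results of these data known. Genes were named by a rule: all passing genes, the 10 per direction with the smallest p whose groups do not overlap, leading and most abundant members of each list, and all members of the clock, heme, succinate, cilia and growth hormone lists. The rule gives 361 genes, of which the text prints those the results turn on; other members enter the counts and medians of their lists. Some genes that the rule gives are not reported here. Alternatives were other filters, pseudocounts and scalings, the 2 groups alone, the replicate block, the library of conflicting labels at 2%, no trend, voom and leaving out each library. A filter of at least 1 FPKM in each of the 6 libraries was added after the data were seen.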

Additional observations from a re-analysis of the deposited data

How the results depend on the processing

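The count of 6 passing genes at 2% against control (2 higher, 4 lower) was 3 without a filter on low values (1 higher, 2 lower), 1 with a filter at a mean FPKM of 5 (0 higher, 1 lower), 0 in the fit of control and 2% libraries alone (0 higher, 0 lower; limma gave an unadjusted p under 0.05 for 145 higher and 571 lower genes) and 1 with the library of conflicting labels at 2% (0 higher, 1 lower). With at least 1 FPKM asked of each of the 6 libraries, a filter added after the data were seen that removes genes which fell below 1 FPKM, it was 2 (1 higher, 1 lower). Leaving out 1 library at a time gave 0 to 7 genes, 0 to 3 higher and 0 to 4 lower, and 0 to 1 gene between the doses, the latter without 1% library 1. Other pseudocounts, other scalings, voom and the fit with no intensity trend gave 5 to 7 passing genes. The cause of these shifts was not tested, except that USP2 and CIART drop under the filter when a control is left out. The split at an unadjusted p under 0.05, 127 higher and 492 lower, was 354 and 371 under quantile scaling, 271 and 390 under median-ratio scaling and 434 and 367 without control 1.

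The replicate numbers do not pair control and 2% libraries: deviations of same-numbered libraries correlated at -0.271, -0.0421 and -0.117. With the replicate block 1 gene passed (USP2; 0 higher, 1 lower).

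Some small changes of genes that did not pass turned sign. PER2 (-0.04) was 0.03 under quantile scaling and 0.02 under median-ratio scaling and voom, and IGFBP3 (-0.01) was 0.11, 0.05 and 0.05. SDHC (-0.09) was 0.03 under quantile scaling. SDHB (0.02) was -0.05 with the library of conflicting labels at 2%. With 1 library left out, PER2 ranged from -0.24 to 0.15, HMOX1 from -1.04 to 0.31, IGFBP3 from -0.29 to 0.28, SLC13A5 from -0.14 to 1.90, SDHB from -0.04 to 0.12 and SDHC from -0.23 to 0.06. With 3 libraries per group and 13818648 to 15807343 recovered reads in the 6 libraries compared, genes under about 1 FPKM are the least precise. DBP passed without 1% library 3 and TSKU with a pseudocount of 5.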
